A study of Mus musculus with 27 samples.

Results

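Thymus was compared with lymph node in 573 mouse genes on 3 arrays of each tissue, 6 of the 27 arrays in the series. The arrays were chosen by their labelled tissue alone. Both tissues came from wild-type male C57BL/6 mice, an inbred strain, aged 6 to 8 weeks, and the labels name no agent given and no altered allele. The series profiled total RNA of 9 tissues, with 3 arrays each, on a custom Affymetrix array. That array covers glycogenes, which build, carry, bind or degrade glycans, and many chemokine, cytokine and growth factor genes. The labels do not say which lymph nodes were taken, whether tissue was pooled, or whether each array had an animal of its own. The p-values therefore cover the spread between these arrays, which may be technical. Both are whole organs, in which fewer cells of a type and less RNA per cell cannot be told apart.

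The thymus is the organ in which T cells develop. Precursors from the bone marrow are guided there and mature under the influence of epithelial cells of its cortex and medulla. A lymph node is a secondary lymphoid organ, where mature B and T cells enter from the blood through high endothelial venules and meet antigen carried by lymph. Chemokines place the cells in both organs, and entry through the venules rests on selectin binding to sulfated, sialylated and fucosylated glycans on mucin-like carriers such as Glycam1.

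Values below are deposited intensities, a measure of probe brightness on a linear scale, and differences are thymus minus lymph node on the log2 scale with the standard error (SE) from limma, a linear model with a pooled estimate of the spread. A gene was called at a Benjamini-Hochberg adjusted p under 0.05 together with a difference of at least 2-fold. Of the 573 genes, 7 (1.22%) were called higher in thymus and 44 (7.68%) higher in lymph node, 8.9% in all. The median difference over all genes was -0.03. At any size, 140 genes (24.4%) passed the adjusted p, 32 (5.58%) higher in thymus and 108 (18.8%) higher in lymph node. All 51 called genes had arrays that did not overlap between the tissues, as had 41.4% of all genes (14.8% higher in thymus, 26.5% higher in lymph node). Each array was most like another of its own tissue, with a correlation across genes of 0.976 to 0.988 within thymus, 0.975 to 0.986 within lymph node and 0.831 to 0.879 between them. Thymus replicate 1 was brighter than the other thymus arrays, with a mean over all probe sets of 482.8 against 421.3 and 419.1. Human probe sets on the same arrays, a rough gauge of signal that is not specific, had a median of 198 and a 95th percentile of 596.7 over these 6 arrays. A fold with one tissue near that median is a ratio of signals, not of transcripts.

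**Figure D1:**
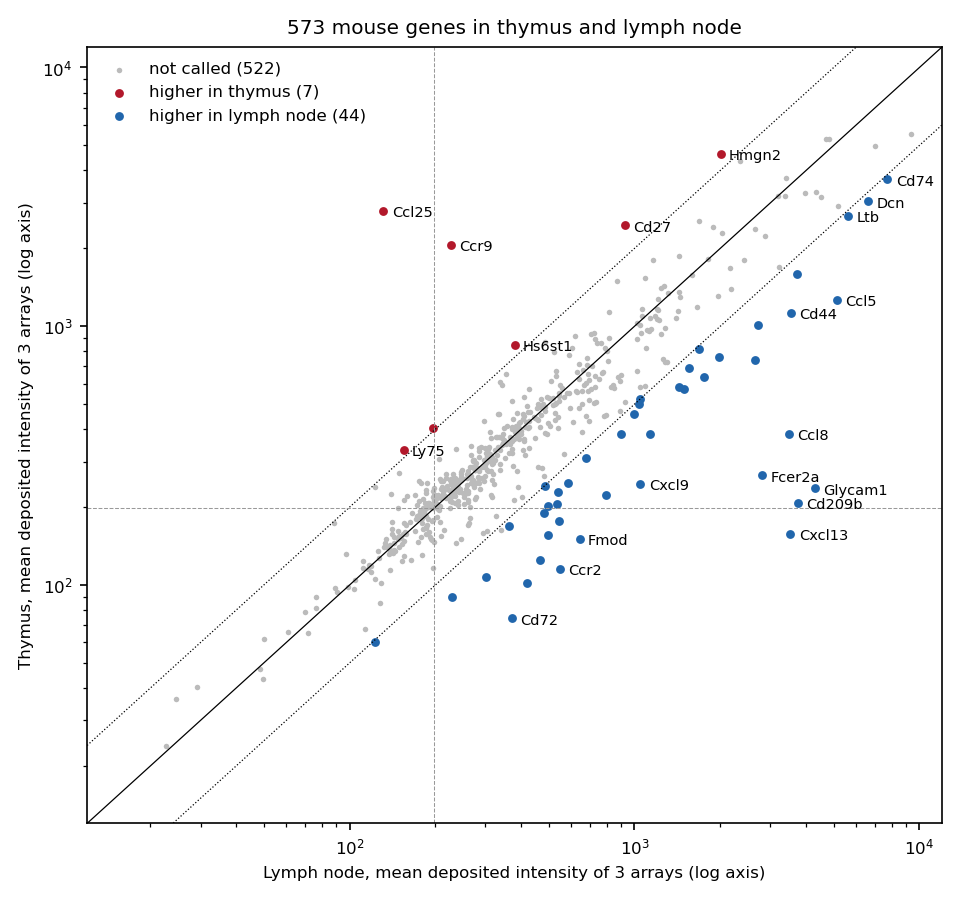
Mean deposited intensity of the 3 thymus arrays (vertical, log axis) against that of the 3 lymph node arrays (horizontal, log axis) for 573 genes. The solid line marks equality, dotted lines a 2-fold difference and dashed lines the human probe set median of 198; 7 genes in red were called higher in thymus and 44 in blue higher in lymph node, with Ccl25 and Ccr9 far above the diagonal and Cxcl13, Cd209b, Glycam1, Fcer2a and Ccl8 far below it.

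Ccl25 and its receptor Ccr9 had the widest differences on the thymus side. Cxcl13 (-4.50) and Glycam1 (-4.19) had the widest on the lymph node side, where Cd209b (-4.18) and Fcer2a (-3.40) came next. The stretches of 250 bases just before the annotated starts of Ccl25, Ccr9, Cxcl13 and Glycam1 are shown because these 4 genes mark the opposite ends of the comparison. They come from RefSeq on GRCm38.p6 and read 5′ to 3′ on the strand of the gene. Capitals mark matches to any of 5 motifs searched on both strands: TATAAA, the TATA box; CAGCTG and CAGGTG, which are E-boxes; TGTGGT, the core bound by Runx factors; and GGGANTTCC, a form of the NF-kappaB site. Another annotated start of Ccl25 lies at the end of chr8:4324960-4325209 (plus strand), with no match to these letters. The window shown for Ccl25 is chr8:4349338-4349587 (plus strand), for Ccr9 chr9:123766961-123767210 (plus strand), for Cxcl13 chr5:95956689-95956938 (plus strand) and for Glycam1 chr15:103565082-103565331 (minus strand).
Ccl25: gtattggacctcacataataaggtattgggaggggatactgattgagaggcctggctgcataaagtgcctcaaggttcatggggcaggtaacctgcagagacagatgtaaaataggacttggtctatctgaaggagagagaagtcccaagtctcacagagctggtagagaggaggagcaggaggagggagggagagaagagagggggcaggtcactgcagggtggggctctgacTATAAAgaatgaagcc
Ccr9: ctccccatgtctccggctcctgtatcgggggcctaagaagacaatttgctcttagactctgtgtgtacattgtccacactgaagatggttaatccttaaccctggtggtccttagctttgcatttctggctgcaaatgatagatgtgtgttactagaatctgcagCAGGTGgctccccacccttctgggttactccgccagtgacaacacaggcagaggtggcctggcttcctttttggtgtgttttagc
Cxcl13: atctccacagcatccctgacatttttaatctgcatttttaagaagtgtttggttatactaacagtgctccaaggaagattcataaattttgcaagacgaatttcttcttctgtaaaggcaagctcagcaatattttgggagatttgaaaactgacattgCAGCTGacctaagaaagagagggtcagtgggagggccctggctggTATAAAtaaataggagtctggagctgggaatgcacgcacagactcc
Glycam1: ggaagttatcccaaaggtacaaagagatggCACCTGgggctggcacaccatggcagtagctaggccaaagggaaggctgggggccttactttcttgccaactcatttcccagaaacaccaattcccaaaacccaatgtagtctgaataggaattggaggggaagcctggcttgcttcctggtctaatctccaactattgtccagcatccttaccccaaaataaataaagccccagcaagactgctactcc
The Ccl25 window held TATAAA starting 16 bases before the start, and the Cxcl13 window held it 46 bases before, with CAGCTG 91 bases before. The Ccr9 window held CAGGTG 85 bases before the start. The Glycam1 window held the same E-box on the other strand, so that it reads CACCTG, 220 bases before. Over all 32851 windows of this length in the table, 12.4% held TATAAA, 13.0% CAGCTG, 17.2% CAGGTG, 14.0% TGTGGT and 1.43% GGGANTTCC. Among 36 windows of 32 genes called higher in lymph node the shares were 22.2%, 22.2%, 19.4%, 19.4% and 5.56%. The genes called higher in thymus had 10 windows, of which 1 held TATAAA, 2 CAGGTG and 1 TGTGGT. A match describes these letters and is no evidence of binding.

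Thymus was marked by the chemokine axis that recruits and positions thymocytes. Ccl25, the chemokine made by thymic epithelium and small intestine, read 3532, 2470 and 2380 on the 3 thymus arrays and 137, 129 and 128.5 on the lymph node arrays. Every thymus array was far above every lymph node array, and the lymph node values lay under the human probe set median. The difference was 4.39 ± 0.14 (SE), or 20.9-fold (limma adjusted p = 7.84e-18). Its second probe set gave 4.53, with means of 1621.8 in thymus and 70.1 in lymph node. Ccr9, the receptor of Ccl25 on developing T cells, read 2136, 1708 and 2345 in thymus against 204.5, 233.9 and 240.6 in lymph node. The difference was 3.18 ± 0.14, or 9.06-fold (limma adjusted p = 2.94e-15). For both genes the lowest thymus array was also brighter than each of the 24 arrays from elsewhere. Spleen, the other secondary lymphoid organ here, had means of 117.5 for Ccl25 and 173.8 for Ccr9.

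The 5 other genes called higher in thymus differed by 2.06-fold to 2.57-fold and came from separate families. Cd27, a costimulatory receptor of the tumour necrosis factor receptor family on T cells, read 3376, 1704 and 2282 in thymus and 1103, 899.8 and 776.2 in lymph node. Its difference was 1.36 ± 0.17, and its thymus arrays lay above all other arrays of the series. Hmgn2, a protein that binds nucleosomes, read 5501, 4314 and 4054 against 1837, 1879 and 2305, a difference of 1.20 ± 0.13. Hmgn2 was brightest in bone marrow, with a mean of 4907. Hs6st1, which adds 6-O-sulfate to heparan sulfate, read 837.6, 888.2 and 813.6 against 394.4, 390.0 and 355, a difference of 1.16 ± 0.14. Hs6st1 did not stand apart from spleen at the set size, with a thymus minus spleen difference of 0.41 and a spleen mean of 640.7. Ly75, the endocytic receptor DEC-205 of dendritic cells and cortical thymic epithelium, read 332, 342 and 326.7 against 139, 135.1 and 190.2. Its difference was 1.13 ± 0.17, with the lymph node arrays under the human median. Of 8 measured dendritic cell markers, Ly75 alone was called. In the other direction 5 passed the adjusted p at less than 2-fold, and the list median was -0.49. Over all genes 18.8% passed in that direction at any size. Ccl27a, a chemokine known for drawing T cells to skin, read 473.8, 406.3 and 334.1 against 208.1, 211.4 and 167.9, a difference of 1.04 ± 0.17. This call lies at the edge of the set size: it fell below 2-fold without thymus replicate 1 (1.89-fold), without lymph node replicate 3 (1.91-fold), with array weights (1.86-fold) and with an offset in place of the floor (1.98-fold).

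**Figure D2:**
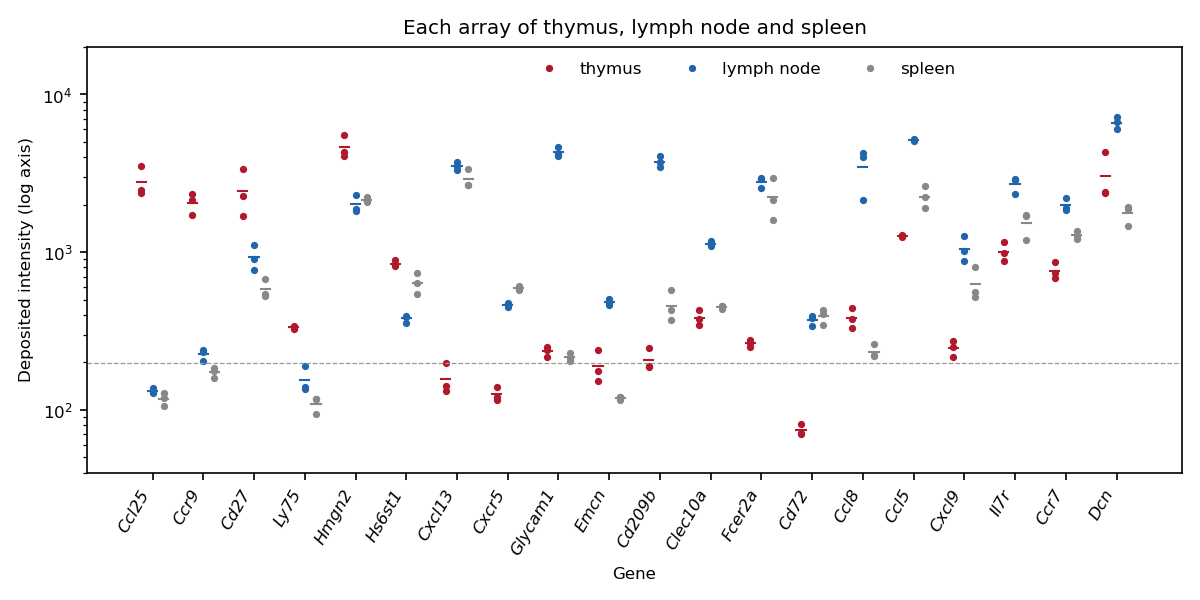
Deposited intensity (log axis) of 20 genes on each of the 3 arrays of thymus (red), lymph node (blue) and spleen (grey), with short lines at the means and a dashed line at the human probe set median of 198. The first 6 genes are higher in thymus, where Ccl25 and Ccr9 stand far above both other organs; for the other 14 the thymus arrays lie below the lymph node arrays, and Glycam1, Cd209b, Ccl8 and Emcn are high in lymph node but not in spleen.

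On the lymph node side, genes of the B cell follicle spanned differences from -4.50 (Cxcl13), the largest of the 44, to -1.06 (Cd74). Cxcl13, the chemokine that stromal cells of follicles make, read 3333, 3730 and 3507 in lymph node and 199.6, 142 and 132.3 in thymus. The lymph node arrays were many times brighter and the thymus arrays lay at or below the human median. The difference was -4.50 ± 0.15, or 22.7-fold higher in lymph node (limma adjusted p = 1.21e-17), and 14.7-fold with quantile normalization. Cxcr5, the receptor of Cxcl13 on B cells, read 452, 474.1 and 468.1 against 139.9, 120.6 and 115.4, a difference of -1.90 ± 0.11. Fcer2a, the low-affinity IgE receptor CD23 of mature B cells, read 2965, 2547 and 2902 against 276.7, 252 and 266.8. Its difference was -3.40 ± 0.19, or 10.6-fold, and 6.81-fold with quantile normalization. Cd72, an inhibitory lectin-like receptor of B cells, read 381, 339.8 and 392.2 against 71.8, 81.5 and 69.9, a difference of -2.32 ± 0.27. Cd74, the invariant chain of antigen presentation, read 8468, 7827 and 6853 against 3923, 3686 and 3467. Its difference of -1.06 ± 0.20 fell below 2-fold with quantile normalization (1.87-fold) and without lymph node replicate 1 (1.99-fold).

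Of the 13 B cell markers listed, 5 were measured and 4 of these were called higher in lymph node (80.0%, beside 7.68% of all genes). The list median was -1.90. The fifth, Cd22, a sialic acid-binding inhibitory receptor of B cells, differed by 0.13 ± 0.20 by its brighter probe set. That probe set was bright in every tissue, with means from 2086 in liver to 5423 in spleen. The dimmer one had means of 97.4 in thymus, 850.2 in lymph node and 837.7 in spleen, and differed by -3.13 ± 0.17. Which of them follows the transcript was not tested. The same B cell genes were also present in spleen, whose means were 2905 for Cxcl13, 590.9 for Cxcr5, 2227 for Fcer2a and 395.4 for Cd72. Lymph node minus spleen differences were 0.29, -0.35, 0.37 and -0.09 in that order, none of them called. In that contrast 24 genes (4.19%) were called, 14 higher in lymph node (2.44%) and 10 higher in spleen (1.75%), and it shares its lymph node arrays with the main comparison.

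Of the vessel genes, Glycam1, Emcn and Pecam1 were called higher in lymph node. Glycam1, the mucin-like selectin ligand secreted by high endothelial venules, read 4638, 4218 and 4063 in lymph node and 241, 251.1 and 216.7 in thymus. The thymus values were close to the human median, and the lymph node arrays lay above all 24 others in the series. The difference was -4.19 ± 0.14, or 18.2-fold (limma adjusted p = 1.21e-17), and 10.5-fold with its 2 probe sets averaged. Glycam1 was low in spleen, with a mean of 215.6, and lymph node exceeded spleen by 4.32. Emcn, the endothelial sialomucin endomucin, read 460.7, 501.8 and 477.7 against 238, 176.3 and 152.9, a difference of -1.37 ± 0.17. Emcn had a spleen mean of 119.1, and lymph node exceeded spleen by 2.01. Pecam1, the endothelial adhesion molecule CD31, read 674.2, 611.4 and 465.8 against 323, 216.8 and 205, a difference of -1.25 ± 0.16. Emcn and Pecam1 are genes of endothelium in general and were brightest in lung, with means of 1199 and 1859.

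Of the enzymes that build selectin ligands, Chst4, Fut7 and St3gal6 were higher in lymph node by less than 2-fold. Chst4, the sulfotransferase of high endothelial venules, read 337.3, 297.7 and 275.2 in lymph node and 178.1, 153.8 and 155 in thymus. Its difference was -0.90 ± 0.17 (limma adjusted p = 0.000235), and its lymph node arrays lay above all others in the series. Fut7, the fucosyltransferase that completes sialyl Lewis x, read 383.4, 386.4 and 405.5 against 236.5, 243.8 and 236.9, a difference of -0.71 ± 0.12. St3gal6, one of the sialyltransferases that can cap this structure, differed by -0.59 ± 0.16 (limma adjusted p = 0.0057, and 0.0512 with quantile normalization). Cd34, another mucin-like carrier, differed by -0.55 ± 0.18. Of 18 measured genes for selectins, their ligands and ligand-building enzymes, 2 were called higher in lymph node (11.1%, beside 7.68% of all genes). At any size 6 passed the adjusted p in that direction and none in thymus. Over all genes these shares were 18.8% and 5.58%. The list median was -0.18. The 7 measured venule markers, 2 of them called, had a median of -0.71 and summed to 1596 to 1755 in thymus and 6011 to 6729 in lymph node. Glycam1 gave most of that gap: the other 6 summed to 1370 to 1514 in thymus and 1948 to 2090.5 in lymph node. The other members named by the list did not pass: Selplg, which encodes the carrier PSGL-1, differed by -0.29, Fut4 by -0.21, Madcam1 by -0.18, B4galt1 by -0.17, Sele by -0.16, St3gal4 by -0.15, Chst1 by -0.06, Gcnt1 by -0.04, Selp by -0.02, Chst2 by -0.01, B3gnt3 by 0.12 and St3gal3 by 0.13.

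Among the other sialyltransferases, which add terminal sialic acid, 2 stood out below the 2-fold size. St6gal1, which makes the alpha2,6-sialylated glycans bound by Cd22, read 854.5, 818.7 and 997 in lymph node and 527.1, 440.3 and 450.4 in thymus, a difference of -0.91 ± 0.14 (limma adjusted p = 1.72e-05). The other St6gal1 probe sets differed by -0.95 and -0.08. St8sia4, a polysialyltransferase, read 1215, 1322 and 1380 against 855.5, 725.2 and 609.9, a difference of -0.85 ± 0.18. Of the 18 measured sialyltransferases none was called, and 5 passed the adjusted p at any size, all higher in lymph node: St6gal1, St8sia4, St3gal6, St3gal1 (-0.29 ± 0.10) and St6galnac4 (-0.27 ± 0.08). Over all genes 18.8% passed in lymph node and 5.58% in thymus. The one-sided split of the sialyltransferases depends on the scaling. With quantile normalization 2 passed in each direction, St6gal1 and St8sia4 in lymph node and St6galnac6 and St8sia3 in thymus. As deposited, St8sia3 differed by 0.27 and St6galnac6 by 0.23, neither passing. The remaining members lay between -0.22 (St6galnac2) and 0.15 (St3gal2): St3gal5, the GM3 synthase, at -0.00, St6galnac5 at -0.01, St6galnac3 at -0.09, St8sia5 at 0.03, St8sia2 at 0.09, St6galnac1 at 0.10 and St8sia1 at 0.14. The list median was -0.01, beside -0.03 over all genes.

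Of 11 measured fucosyltransferases, Fut7 alone passed the adjusted p, and none was called. Fut9, a Lewis x synthase, differed by 0.54 ± 0.26 at means of 36.3 and 24.7, far under the human median. Fut8, which adds core fucose to N-glycans, differed by 0.44 ± 0.17 (limma adjusted p = 0.0685) although its arrays did not overlap. Sec1 differed by 0.17, Pofut1, which fucosylates Notch, by 0.10, Fut10 by 0.09, Fut1 by 0.09, Fut2 by 0.04, Fut11 by -0.03 and Pofut2 by -0.07. The list median was 0.09.

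The 16 measured genes of mucin-type O-glycosylation showed no shared direction, with 8 positive and 8 negative differences, a median of 0.00 and none called. Apart from the list counts, the genes in this paragraph were picked for description after their values were seen. C1galt1, the core 1 galactosyltransferase, read 224, 246.3 and 340.1 in thymus and 150.5, 155.1 and 142.5 in lymph node, a difference of 0.83 ± 0.17 (limma adjusted p = 0.000537). Galnt2, which starts O-glycans by adding GalNAc, read 638.7, 562.7 and 575.8 against 361.4, 382.5 and 288.1, a difference of 0.79 ± 0.15. Galnt7, a transferase of the same family, differed by 0.61 ± 0.14. The other measured members of the Galnt family did not pass, at 0.11 for Galnt3, 0.04 for Galnt6, -0.12 for Galnt4 and -0.23 for Galnt1. Among the 16 genes C1galt1, Galnt2 and Galnt7 were higher in thymus at any size and 2, the sialyltransferases St3gal1 and St6galnac4, were higher in lymph node. With quantile normalization the first 3 still passed and the last 2 did not. Over all genes as deposited, 5.58% passed in thymus and 18.8% in lymph node. Hs2st1, a heparan sulfate 2-O-sulfotransferase, was higher in thymus by 0.45 ± 0.08 and Xylt2, which starts glycosaminoglycan chains, by 0.37 ± 0.13. Hs3st1, a heparan sulfate 3-O-sulfotransferase, was higher in lymph node, at -0.69 ± 0.14. Of 23 measured glycosaminoglycan genes, Hs6st1 was called in thymus (4.35%, beside 1.22% of all genes) and none in lymph node.

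**Figure D3:**
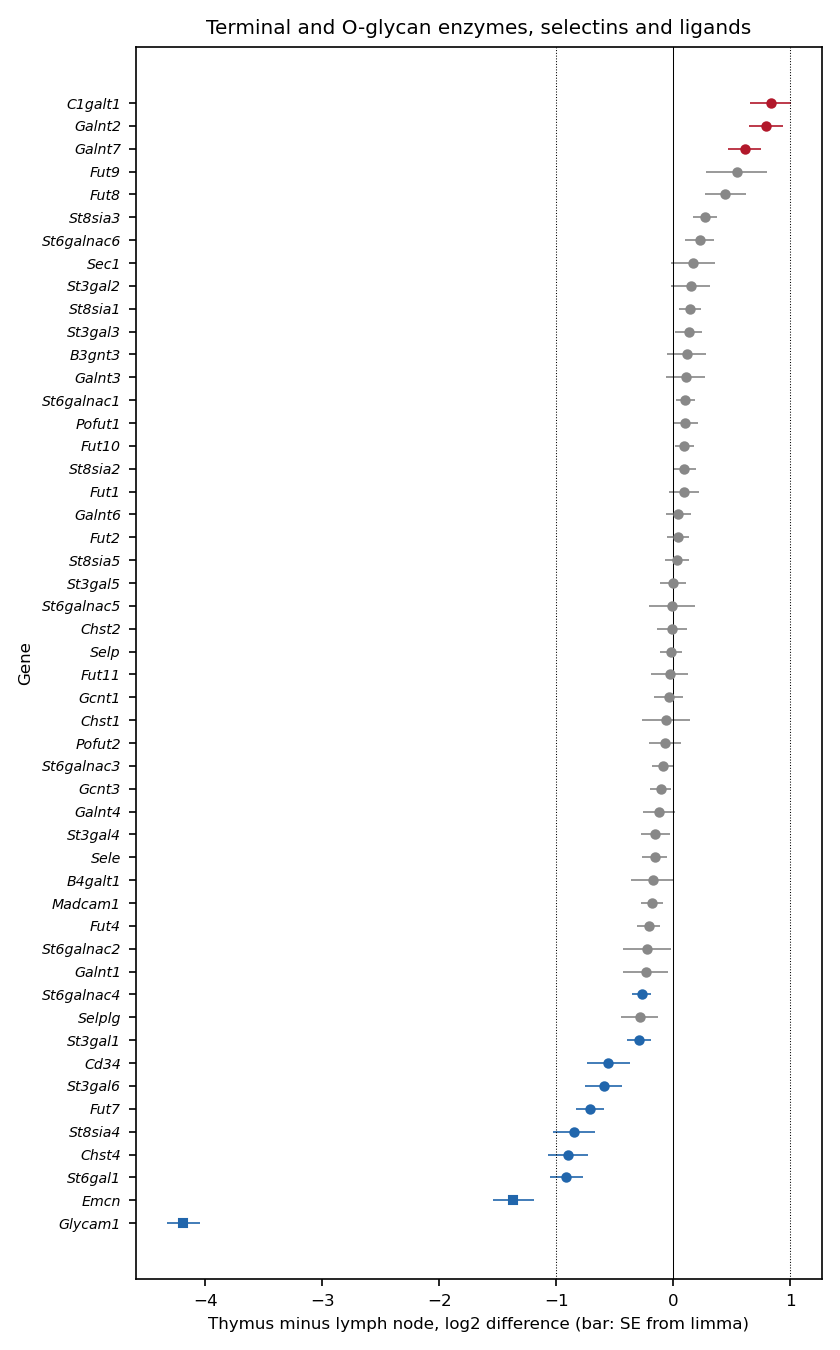
Thymus minus lymph node difference (log2, horizontal) with the SE from limma as a bar, for the measured sialyltransferases, fucosyltransferases, selectin ligand genes and mucin-type O-glycan enzymes. Squares are called genes, and blue or red points pass the adjusted p; Glycam1 at -4.19 and Emcn at -1.37 are the called ones, and C1galt1, Galnt2 and Galnt7 are the red points at the thymus end.

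Of 14 measured glycosphingolipid synthesis genes, 5 passed the adjusted p at any size, all higher in lymph node. Over all genes 18.8% passed in lymph node and 5.58% in thymus. With quantile normalization 3 of the 14 passed in lymph node and 1, St6galnac6, in thymus. B3gnt5, which starts the lacto-series of glycosphingolipids, read 284.4, 296.4 and 323.3 in lymph node and 93.3, 119 and 108.8 in thymus, where the level lay below the human median. Its difference was -1.50 ± 0.16, or 2.83-fold (limma adjusted p = 7.5e-08). It was the only called gene of the 14 glycosphingolipid synthesis genes and of 22 galactosyl- and N-acetylglucosaminyltransferases. These shares are 7.14% and 4.55%, beside 7.68% of all genes called higher in lymph node. B4galnt1, the GM2/GD2 synthase, differed by -0.82 ± 0.13, B3galnt1, the globoside synthase, by -0.75 ± 0.20, and Ugcg, the glucosylceramide synthase, by -0.60 ± 0.12. B3galt4, of the same list, differed by -0.46 ± 0.13. With quantile normalization B4galnt1 and B3galnt1 still passed, and Ugcg and B3galt4 did not. In the sialic acid pathway Cmah, which converts Neu5Ac to Neu5Gc, differed by -0.83 ± 0.16. B4galnt1, B3galnt1, Ugcg, B3galt4 and Cmah were named after their values were seen.

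Of 22 measured lysosomal glycan degradation genes, 2 were called higher in lymph node (9.09%, beside 7.68% of all genes), and 6 had positive differences. Gm2a, the activator protein for GM2 breakdown, read 1141, 1286 and 1881 in lymph node and 607, 678.6 and 462.3 in thymus, a difference of -1.29 ± 0.28. Hexa, the alpha subunit of the hexosaminidase that acts with it, read 996, 926 and 1180 against 546.4, 498.1 and 459.3, a difference of -1.04 ± 0.17. Asah1, acid ceramidase, a lysosomal enzyme outside that list, read 1286, 1619 and 1767 against 868.3, 613.8 and 595.1, a difference of -1.18 ± 0.17. All 3 fell below 2-fold with quantile normalization, Gm2a to 1.89-fold and Hexa to 1.64-fold. Hexa was also at 1.92-fold without lymph node replicate 3 and 1.97-fold without thymus replicate 3. At any size 7 of the 22 passed, all higher in lymph node, with a list median of -0.28. Over all genes 18.8% passed in lymph node and 5.58% in thymus. With quantile normalization none of the 22 was called, 5 passed in lymph node and 1, Neu3, in thymus. Ctsa (-0.94) and Gusb (-0.84) were the largest of those under 2-fold.

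Of 29 measured chemokines, 2 were called in thymus and 6 in lymph node, with a median of -0.03. The shares are 6.9% and 20.7%, beside 1.22% and 7.68% of all genes. Besides Cxcl13, the lymph node ones were Ccl8, Ccl5, Cxcl9, Ccl12 and Ccl7. Ccl8, a monocyte-attracting chemokine, read 2152, 4011 and 4270 in lymph node and 445.1, 378.7 and 329.7 in thymus. Its difference was -3.12 ± 0.18, or 8.72-fold (limma adjusted p = 8.06e-13), and spleen was lower still at 233.6. Ccl5, which T and NK cells secrete, read 5076, 5137 and 5194 against 1291, 1243 and 1270, a difference of -2.02 ± 0.20, or 4.05-fold. Ccl5 was 2.63-fold higher with its 2 probe sets averaged. Cxcl9, an interferon-gamma-induced ligand of Cxcr3, read 874.2, 1012 and 1259 against 272.9, 249.9 and 217.3, a difference of -2.08 ± 0.17. The lymph node arrays of Ccl8, Ccl5 and Cxcl9 each lay above all 24 other arrays. Ccl12 differed by -1.30 ± 0.11. Ccl7 differed by -1.11 ± 0.20, but lymph node replicate 2 read 886.8 against 408.6 and 327.8, and without it the difference was 1.60-fold, against 1.95-fold with quantile normalization. Some other chemokines known from inflammation did not pass: Ccl3 and Ccl4 each differed by 0.00, Ccl11 by 0.00, Cxcl2 by 0.02, Cxcl11 by 0.12 and Ccl20 by 0.21. The lymph node means of Ccl3, Ccl4, Cxcl2 and Cxcl11 lay under the human median. Cxcl10, another interferon-induced ligand of Cxcr3, was higher in lymph node by less than 2-fold, at -0.77 ± 0.19 (limma adjusted p = 0.00271). So were Cxcl1 (-0.78) and Ccl9 (-0.69), which passed the adjusted p as deposited and with quantile normalization. At any size 10 chemokines passed in lymph node and 3 in thymus, beside 18.8% and 5.58% of all genes. Cxcl10, Cxcl1, Ccl9 and the chemokines listed as not passing were named after their values were seen.

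Ccl21b, a chemokine that draws Ccr7-bearing cells, was bright in both organs, at 10601, 8909 and 8623 in lymph node and 7155, 4944 and 4513 in thymus. Its difference was -0.78 ± 0.15 (limma adjusted p = 0.000294, and 0.161 with quantile normalization). Near-identical Ccl21 copies in the mouse genome may share this probe set. Cxcl12, known for holding precursors in bone marrow, differed by -0.40 without passing. Ccl21b and Cxcl12 were named after their values were seen.

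Among 16 measured chemokine receptors, Ccr9 was called in thymus and 6 in lymph node, with a median of -0.34. The shares are 6.25% and 37.5%, beside 1.22% and 7.68% of all genes. Ccr7, which takes naive T cells and dendritic cells into lymph nodes, read 1855, 2201 and 1903 in lymph node and 864.5, 736.1 and 682.3 in thymus, a difference of -1.39 ± 0.13 (limma adjusted p = 9.18e-09). Ccr6, found on B cells and memory T cells, read 508.7, 477.9 and 500.7 against 170.7, 136.5 and 163.2, a difference of -1.67 ± 0.13. Cxcr6, found on effector T and NKT cells, read 494.7, 531.9 and 607.5 against 182.8, 191.6 and 157.2, a difference of -1.62 ± 0.17. Ccr2, the receptor of inflammatory monocytes, read 392.3, 696.9 and 552.4 against 113.8, 124.5 and 108.3, a difference of -2.21 ± 0.25. Ccr1l1, a Ccr1-like receptor, differed by -1.38 ± 0.20. The thymus means of these genes other than Ccr7, and that of Cxcr5, lay below the human median, and Ccr7 fell to 1.90-fold with quantile normalization. Cxcr3, a receptor of Th1 cells, differed by -0.05, with overlapping arrays. Its probe set was bright in every tissue, with means from 818.8 in lung to 1134 in testis. Whether it follows the transcript was not tested.

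Receptors of mature lymphocytes split between the organs. Il7r, the interleukin 7 receptor alpha chain of naive T cells and of early precursors, read 2870, 2930 and 2347 in lymph node and 1154, 876.4 and 993.8 in thymus, a difference of -1.43 ± 0.14. Il2rb, the beta chain shared by the interleukin 2 and 15 receptors, read 1733, 1808 and 1731 against 667.7, 577.2 and 658.2, a difference of -1.47 ± 0.13. The lymph node arrays of Il7r and Il2rb lay above all 24 others. Il7r fell to 1.94-fold with quantile normalization. Of 7 measured mature T cell markers, these 2 and Ccr7 were called in lymph node and Cd27 in thymus. The shares are 42.9% and 14.3%, beside 7.68% and 1.22% of all genes. Cd40lg differed by 0.13 and Il6ra by 0.23, neither passing.

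Of 17 thymocyte and thymic epithelium markers listed, 3 were measured: Ccl25 and Ccr9 were called in thymus and St8sia4 lay the other way. Klrd1, the CD94 chain of NK receptors, read 737.5, 790 and 849.8 against 220.8, 240.3 and 206.8, a difference of -1.83 ± 0.12. Of 50 measured interleukin, interferon and receptor genes, 4 were called in lymph node (8.0%, near the 7.68% of all genes) and none in thymus. They were Il2rb, Il7r, the oncostatin M receptor Osmr (-1.13 ± 0.17) and the interleukin 10 receptor Il10ra (-1.01 ± 0.14). At any size 9 of the 50 passed in lymph node and 2 in thymus, near the 18.8% and 5.58% of all genes. Il10ra was at the edge of the set size, at 1.59-fold with quantile normalization, 1.77-fold with its probe sets averaged, 1.98-fold with an offset in place of the floor, and between 1.89-fold and 1.98-fold without any 1 of lymph node replicates 2 and 3 and thymus replicates 2 and 3. Osmr fell to 1.87-fold with quantile normalization. Il7, the cytokine of thymic stroma that binds Il7r, differed by 0.40 ± 0.14 (limma adjusted p = 0.0334) and was named after its value was seen.

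In the tumour necrosis factor family, Cd27 was the called gene in thymus, and 3 of 23 were called in lymph node. These shares are 4.35% and 13.0%, beside 1.22% and 7.68% of all genes. Tnfrsf1b, the TNF receptor 2, read 1392, 1593 and 1480 in lymph node and 636.1, 562.9 and 513.1 in thymus, a difference of -1.39 ± 0.14. Ltb, lymphotoxin beta, which lymphoid organs need to form, read 6250, 5432 and 5223 against 3366, 2385 and 2258, a difference of -1.10 ± 0.16. Tnfsf13b, the B cell survival factor BAFF, read 335, 338.2 and 414.2 against 171.5, 177.1 and 161.2, a difference of -1.09 ± 0.13. Ltb fell to 1.99-fold with quantile normalization and to 1.98-fold without thymus replicate 3, and Tnfsf13b to 1.98-fold without lymph node replicate 3. Fas, the death receptor, differed by 0.88 ± 0.16 in favour of thymus and was named after its value was seen.

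Of 34 measured C-type lectins and collectins, 9 were called in lymph node and Ly75 in thymus (29.4%, beside 8.9% of all genes), with a median of -0.33. The called share was 43.8% for the chemokine receptors and 27.6% for the chemokines. Cd209b, the SIGN-R1 receptor of macrophages that line marginal zones and lymph node sinuses, read 3471, 4045 and 3713 in lymph node and 247.1, 189.8 and 187.9 in thymus. The thymus arrays lay near the human median, and the difference was -4.18 ± 0.14, or 18.1-fold (limma adjusted p = 1.21e-17). Spleen had a mean of 458.5, so that lymph node exceeded it by 3.05. The related genes Cd209e (-0.84), Cd209a (-0.80) and Cd209d (-0.74) passed at less than 2-fold, and Cd209c differed by -0.09. These relatives were named after their values were seen, and transcripts of such a family can bind each other's probes. Clec10a, a galactose-binding receptor of macrophages and dendritic cells, read 1115, 1181 and 1101 against 427.9, 344.6 and 376, a difference of -1.57 ± 0.11. Clec4a2, an inhibitory myeloid receptor, read 194.7, 508.7 and 559 against 100.5, 115.4 and 89.2, a difference of -1.91 ± 0.42. Lymph node replicate 1 was well below its fellows here, though above every thymus array. Mrc1, the mannose receptor, differed by -1.22 ± 0.29, and Clec5a, a myeloid activating receptor, was 2.003-fold higher in lymph node (limma adjusted p = 4.34e-08). Both fell below 2-fold with quantile normalization, and Clec5a also without lymph node replicate 3 (1.94-fold), thymus replicate 1 (1.97-fold) or thymus replicate 2 (1.998-fold), with array weights and with an offset in place of the floor (1.94-fold each).

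Lymph node replicate 1 was the low array of its group in several myeloid genes. Ltf, lactoferrin of neutrophil granules, read 256.5, 692.3 and 654.4 in lymph node and 204.1, 210.1 and 201.5 in thymus. Its difference was -1.25 ± 0.36 (limma adjusted p = 0.012), and the adjusted p was 0.087 without lymph node replicate 2 and 0.0787 without replicate 3. Of 8 measured macrophage and monocyte markers 5 were called in lymph node (62.5%, beside 7.68% of all genes). The summed level of the list was 1921 to 2446 in thymus and 7038 to 8575 in lymph node. Cd209b gave most of that gap, and the other 7 markers summed to 1734 to 2199 in thymus and 3567 to 4824 in lymph node. Siglec1, a sialic acid-binding receptor of macrophages, differed by 0.10, at means of 81.3 in thymus and 76.0 in lymph node. Its probe set was dim in every tissue, with means from 65.8 in bone marrow to 81.3 in thymus, far under the human median of 198. Whether it follows the transcript was not tested, so the small difference does not show equal expression. Of 6 neutrophil markers 2 were called in lymph node (33.3%). The 6 summed to 2377 to 2815 in thymus and 2971 to 3418 in lymph node, or 2167 to 2610.5 and 2714 to 2764 without Ltf. The part of these cells in the other differences was not tested.

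Of 21 measured proteoglycan core proteins, 3 were called, all higher in lymph node (14.3%, beside 7.68% of all genes), and the list median was -0.03, beside -0.03 over all genes. The 3 are small matrix proteoglycans. Fmod, the collagen-binding proteoglycan fibromodulin, read 738.7, 588.8 and 598.6 in lymph node and 146.2, 173.1 and 134.1 in thymus, a difference of -2.09 ± 0.16. Bgn, biglycan, read 2449, 2437 and 3076 against 965.2, 672.8 and 576.6, a difference of -1.87 ± 0.20. Dcn, decorin, read 6004, 6675 and 7164 against 4321, 2379 and 2418, a difference of -1.18 ± 0.21. Thymus replicate 1 was the high array of its group in Dcn, and the fold was 1.95 with quantile normalization. Of the other 18, 9 had positive differences, among them Vcan at 0.06 and Acan at 0.06, the large aggregating proteoglycans. Srgn, serglycin, was higher in lymph node by less than 2-fold, at -0.88, and passed the adjusted p as deposited and with quantile normalization. Lum, lumican, differed by -0.45 without passing. The syndecans lay between -0.08 (Sdc2) and 0.16 (Sdc1), and Gpc1, glypican 1, was higher in thymus by 0.48 ± 0.12. Vcan, Acan, Srgn, Lum, the syndecans and Gpc1 were named after their values were seen. Among growth factor genes, Igf1, insulin-like growth factor 1, differed by -1.13 ± 0.19 and fell to 1.76-fold with quantile normalization and 1.997-fold without thymus replicate 3. Pdgfra, a growth factor receptor of mesenchymal cells, differed by -1.05 ± 0.12 with both means, 60.2 and 123.3, under the human median. It was at 1.93-fold without thymus replicate 2, 1.85-fold with a floor of 64 and 1.84-fold with an offset in place of the floor.

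All 9 measured fibroblast and connective tissue markers had negative differences, 5 of them called (55.6%, beside 7.68% of all genes), with a median of -1.05. With quantile normalization 3 were called and the median was -0.81. The list summed to 11337, 7532 and 7222 in thymus and to between 16084 and 17701 in lymph node, so that thymus replicate 1 was the highest thymus array. Without Dcn, the brightest member, the sums were 4804 to 7016 and 9569 to 10537. Of 10 endothelial markers 2 were called in lymph node and all had negative differences (8 of 10 with quantile normalization), with sums of 3065 to 4119 in thymus and 4349 to 4734 in lymph node. No adipocyte marker was measured. These lists share members with the results above: Emcn and Pecam1 are the called endothelial markers, and Fmod, Bgn and Dcn are the called proteoglycans. The marker counts are therefore not separate from those results. The part of stroma and vessels in the other differences was not tested.

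The called integrins and adhesion genes were all higher in lymph node. Cd44, the hyaluronan receptor that marks activated and memory lymphocytes, read 3090, 3513 and 4043 in lymph node and 1172, 1089 and 1124 in thymus, a difference of -1.65 ± 0.14. Cd48, a ligand of Cd2 and Cd244 on blood cells, differed by -1.25 ± 0.20, and Itgb7, the integrin chain that pairs for gut homing, by -1.04 ± 0.12. Both fell below 2-fold with quantile normalization, to 1.80-fold and 1.55-fold, and Itgb7 to 1.96-fold without lymph node replicate 1. Itgal, the alpha chain of LFA-1, was higher in thymus by 0.54 ± 0.18 and was named after its value was seen. Of 24 integrins and adhesion genes none was called in thymus and 4 in lymph node, Pecam1 included (16.7%, beside 7.68% of all genes). At any size 9 passed in lymph node and 1, Itgal, in thymus, beside 18.8% and 5.58% of all genes. With quantile normalization 6 passed in lymph node and 2 in thymus. The TGF-beta superfamily (33 genes) and the fibroblast growth factor and Wnt genes (48) held no called gene, and 4 galectins and 6 Siglecs held none by the chosen probe sets.

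**Figure D4:**
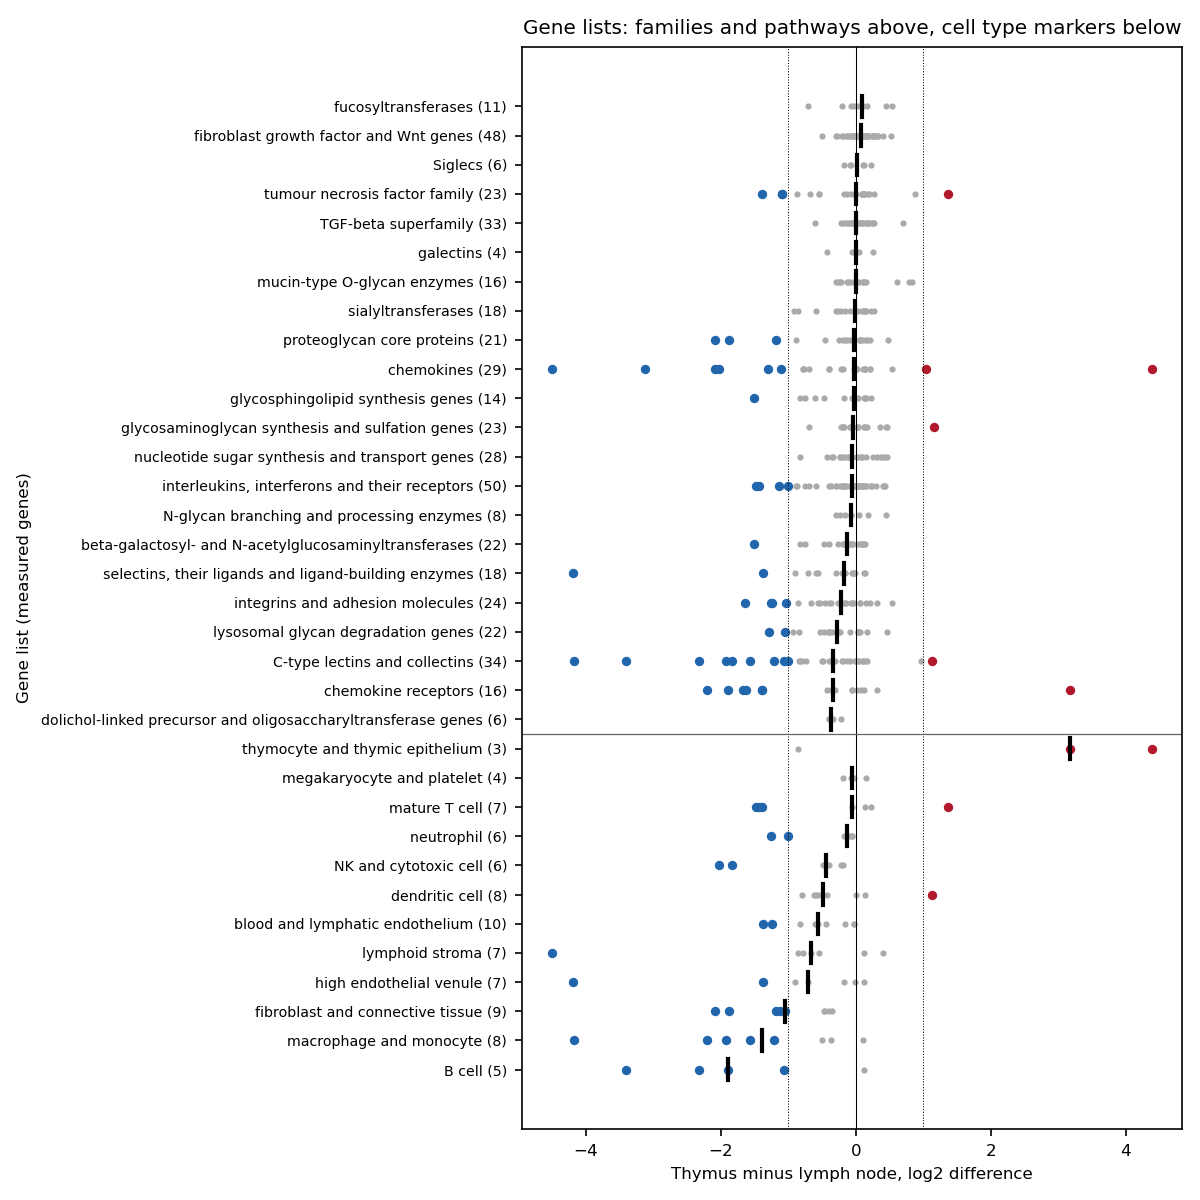
Thymus minus lymph node difference (log2, horizontal) of each measured gene, by gene list with the number measured, families and pathways above the line and cell type markers below. Grey points were not called, red were called in thymus, blue in lymph node, and black bars are list medians. B cell (-1.90), macrophage (-1.39) and fibroblast (-1.05) markers have medians past the dotted 2-fold line on the lymph node side. With quantile normalization the fibroblast median was -0.81.

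In the context of the whole series, 4 of the 7 thymus genes (Ccl25, Ccr9, Cd27 and Ly75) were brightest in thymus of the 9 tissues, and 23 of the 44 lymph node genes were brightest in lymph node. For 15 of the 44, the lowest lymph node array was brighter than each of the 24 arrays from elsewhere. The called genes were picked for a high level in thymus or in lymph node, which by itself favours such counts. The shares over all genes are not given here. The 21 lymph node genes that were not brightest in lymph node were brightest elsewhere. In lung these were Asah1, Bgn, Ccr1l1, Emcn, Osmr, Pdgfra, Pecam1 and Tnfsf13b, in spleen Cd72, Cd74, Cxcr5, Gm2a, Il10ra and Mrc1, in bone marrow Ccr2, Cd44, Clec4a2, Clec5a, Hexa and Ltf, and in liver Igf1. Lymph node was also called above spleen for 11 genes of the 44: Ccl12, Ccl5, Ccl7, Ccl8, Ccr2, Cd209b, Clec10a, Cxcr6, Dcn, Emcn and Glycam1. Thymus minus spleen called 45 genes (7.85%), 10 higher in thymus (1.75%) and 35 higher in spleen (6.11%). It shares the thymus arrays with the main comparison, and its differences for Cxcl13, Fcer2a and Cd72 were -4.22, -3.03 and -2.41. For Dcn and Emcn the thymus minus spleen differences were 0.74 and 0.64.

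**Figure D5:**
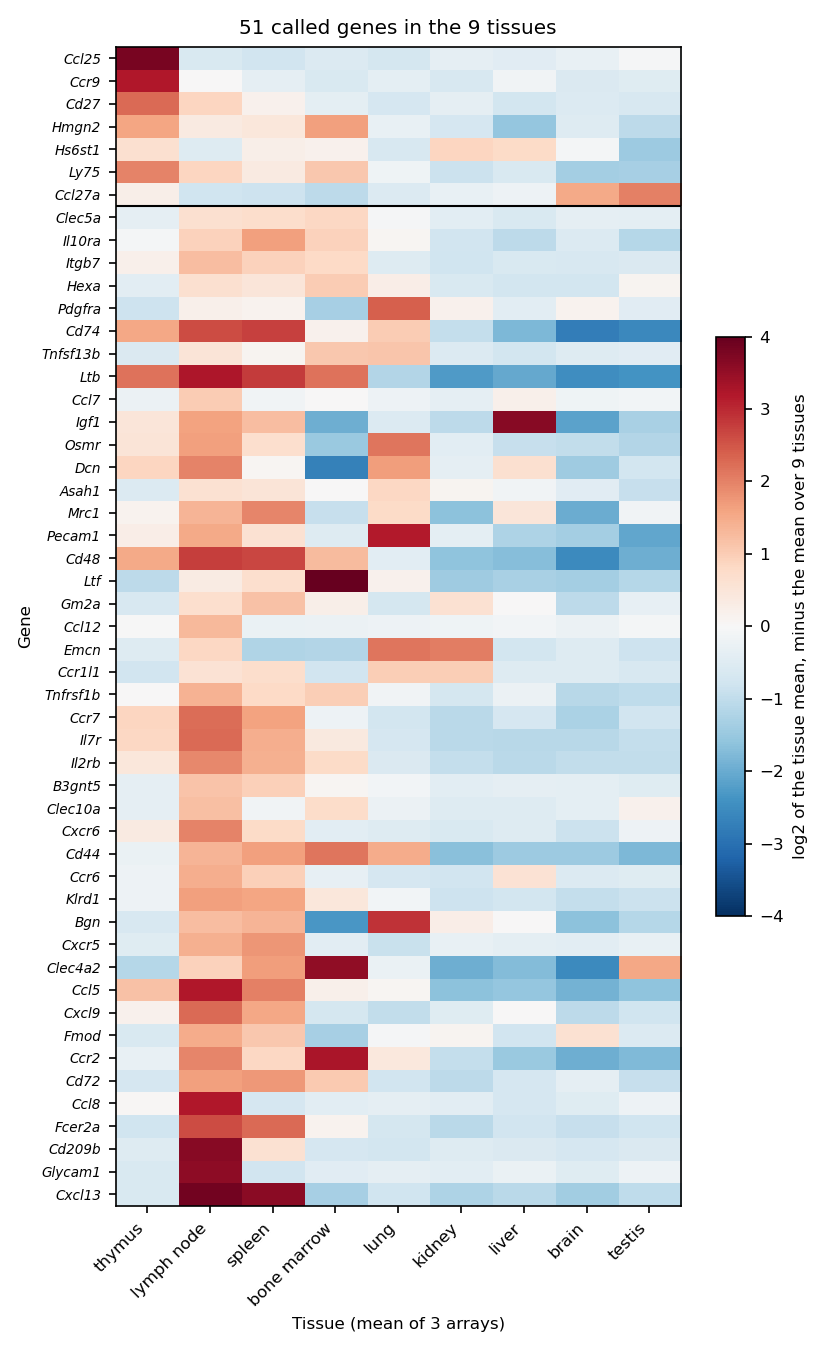
Level of the 51 called genes in the 9 tissues, as log2 of the tissue mean of 3 arrays minus the gene's mean over the tissues (colour), ordered by thymus minus lymph node with a line between the 7 thymus genes and the 44 lymph node genes. Spleen shares the high levels of Cxcl13, Fcer2a and Cd72 with lymph node but not those of Glycam1, Cd209b and Ccl8, and Ltf, Clec4a2 and Ccr2 peak in bone marrow.

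At the other end, the 5 bright genes with the smallest differences were St3gal5 (-0.00), Gnb1, a G protein beta subunit (0.01), St6galnac5 (-0.01), Pigp, a subunit of the first enzyme of GPI anchor synthesis (-0.01), and Glb1l3, a beta-galactosidase-like gene (-0.02). Gnb1 read 1895, 1721 and 1848 in thymus and 1741, 1762 and 1927 in lymph node, and the arrays of all 5 genes overlapped.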

How the data were processed

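Biotin-labelled total RNA was read on a 1-colour custom Affymetrix array, per the labels. The deposited values are intensities on a linear scale, 1 for each of 1813 probe sets on 27 arrays. How the authors summarised probes, corrected background and scaled arrays is not given in the sources used here. Intensities as deposited were therefore not rescaled, and any scaling that differed between tissues would pass into the results. The platform annotation gave 1 symbol to 1563 probe sets, several to 2 and none to 248, which are not reported here. By gene identifier 702 probe sets matched 573 mouse genes. For the 122 genes with several probe sets, the brightest on average over the series was kept. Intensities under 16 were raised to 16 (1 value on the 6 arrays) before log2 was taken.

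A linear model (limma 3.58.1, R 4.3.3, lmFit and eBayes) used all 27 arrays with a term for each tissue, and p-values were adjusted over 573 genes. Calls needed an adjusted p under 0.05 with at least 1 on the log2 scale, and folds are 2 raised to that difference. The script was tested on simulated data. The number of arrays limits the precision.

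The tissues, the gene lists and the rule for named genes were chosen with earlier results of these data known. The rule names the 15 largest called genes without overlap in each direction, up to 6 called members of each list in each direction, all measured sialyltransferases, fucosyltransferases, selectin ligand genes and thymocyte, mature T cell, B cell and high endothelial venule markers, and the 5 bright genes with the smallest differences. Other genes were named after their values were seen, as the text says beside them; Asah1, Siglec1, Cd209c, Neu3, Ctsa, Gusb, Hs2st1, Hs3st1 and Xylt2 also belong there. The settings tried in turn were a quantile normalization, centring on medians, a filter on genes low over the series, a floor at 64, log2 after adding 16, averaged probe sets, eBayes with trend and robust options, weights for arrays, a block for the number in the title, a fit to the compared tissues only, and the loss of each array.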

Additional observations from a re-analysis of the deposited data

Results flagged for a closer look

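A signal outside the probe sets used for the genes came from Cd22. Its dimmer probe set differed by -3.126 (SE 0.171), or 8.73-fold higher in lymph node (limma adjusted p = 4.99e-13), while the brighter one used for the gene did not pass. The lymph node arrays of the dimmer probe set read 899, 753.6 and 897.8, the thymus arrays 105.4, 86.1 and 100.9, and bone marrow had the highest mean of the 6 other tissues outside spleen, at 130.1.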

How the results depend on the processing

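Of the 51 calls, 31 (6 in thymus, 25 in lymph node) held under every alternative other than the filter on low genes, and 20 were lost under at least 1 of them. Without the third of genes with the lowest mean, 4 genes were called in thymus, 29 in lymph node and 28 in thymus minus spleen, against 7, 44 and 45; the filter removes genes that are low over most tissues, Ccl25, Ccr9 and Cxcl13 among them. Quantile normalization called 28 genes in lymph node and 8 in thymus, sharing 35 with the calls above; the cause was not tested. All 140 genes past the adjusted p kept their direction with quantile normalization, and 117 still passed. Cd22 turned to -1.498 with its probe sets averaged. Leaving out each array gave 7 to 8 genes in thymus, 40 to 46 in lymph node, 43 to 47 in thymus minus spleen and 23 to 28 in lymph node minus spleen. The title numbers did not meet the rule for pairing, a correlation of deviations over 0.1 in every pair: these were 0.181, -0.105 and -0.114 between thymus and lymph node, 0.391, 0.553 and 0.073 between thymus and spleen, and 0.116, -0.016 and -0.11 between lymph node and spleen. With the replicate number as a block 7, 44, 45 and 24 genes were called in these comparisons, with 51 of 51 calls shared. Signal over background limits the folds: 13 of the 44 lymph node genes had a thymus mean under the human probe set median.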
